A study of Boechera gunnisoniana with 7 samples.

Results

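The genes whose level on the central cell array of *Boechera gunnisoniana* stood apart from the levels on both the egg cell and the synergid cell arrays are described here. A gene was called central-high if its log2 value in the central cell was at least 2 (4-fold) above its values in both the egg cell and the synergid cells. It was called central-low if it was at least 2 below both. Of 21428 genes, 18 were central-high (0.0840% of the genes tested) and 238 were central-low (1.11%). With 1 array for each of these cell types, the counts and values describe 3 hybridizations. The differences to both arrays chose the members, so they are given as a description with no test.

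*B. gunnisoniana* is a triploid relative of *Arabidopsis* that forms seeds without meiosis and without fertilization of the egg cell (apomixis), while its endosperm still needs fertilization of the central cell. The central cell, the egg cell and the synergid cells came from mature unfertilized female gametophytes, for which flowers were emasculated some hours before fixation. The sporophytic nucellus tissue and the apomictic initial cell (AIC), from which the gametophyte descends, came from younger ovules. Each sample was a pool of cells or tissue cut from sections by laser-assisted microdissection, so that RNA of adjoining cells can be carried along, and its RNA was amplified and hybridized to an ATH1 GeneChip with probes designed on *Arabidopsis*. The series holds 7 arrays, 1 each of the central cell, the egg cell and the synergid cells, and 2 each of the AIC and the nucellus.

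In flowering plants, the central cell is the large companion of the egg cell in the female gametophyte. After fusion with a sperm cell it founds the endosperm, the tissue that nourishes the embryo. In *Arabidopsis* it is known for the FIS class of Polycomb proteins, which restrain endosperm development before fertilization, for the DNA demethylase DEMETER, which activates imprinted genes in it, and for MADS-box transcription factors of the AGL61 and AGL80 type. The synergid cells attract and receive the pollen tube.

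The central cell array had a narrower range than the others at the bright end. Its 90th percentile lay at a log2 value of 5.87, against 6.33 and 6.01 on the arrays of the egg cell and the synergid cells, and between 6.26 and 6.39 on the AIC and nucellus arrays. Its median of 4.16 was above the 4.01 of the egg cell array and the 4.1 of the synergid cell array. Over all genes, the median difference of the central cell was 0.11 to the egg cell and 0.03 to the synergid cells, whereas over the 4053 genes in the top 25% of both other arrays it was -0.48 and -0.26. The 25S rRNA control read 13.14 on the central cell array, against 10.93 for the egg cell and 11.79 for the synergid cells, and 12.74 to 12.90 on the AIC and nucellus arrays. The control for the middle of the GAPDH transcript read 5.46 on the central cell array, the lowest of the 7, against 8.67 for the egg cell and 8.29 for the synergid cells. Other controls went the other way, with actin at its 3' end (7.91) and ubiquitin at its 5' end (8.91) highest on the central cell array. GAPDH read 3.52 higher at its 3' end than at its 5' end on this array, against 2.23 to 2.84 on the others. For actin this difference was 3.10, against 2.11 to 3.27 on the others. In the study's own calls, fewer genes were detected above background on the central cell array than on any other of the 7. Those calls were not used here, so a dim reading on this array can be background. The part of these array-wide differences in the counts was not tested, and ranks within each array are therefore given beside the log2 values. In pools of cells, fewer cells of a type and less RNA per cell cannot be told apart.

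**Figure D1:**
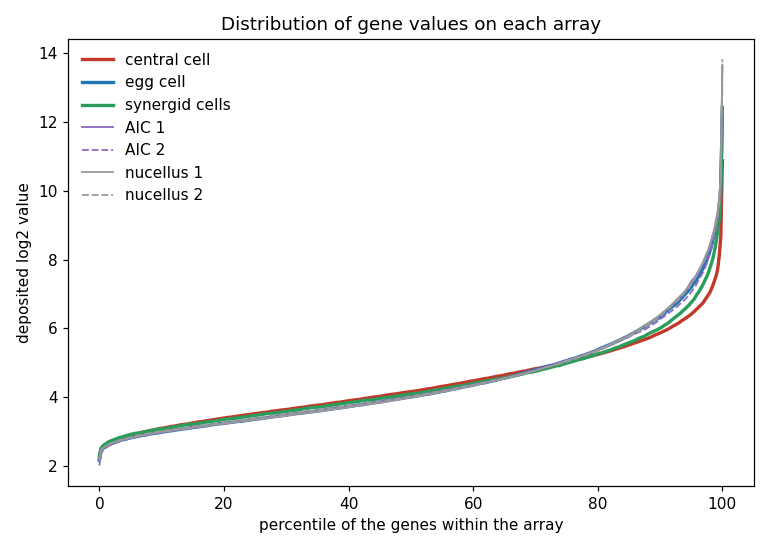
Deposited log2 value (y axis) at each percentile of the 21428 genes (x axis), with 1 line per array. The line of the central cell runs below the others in the brightest 10% of the genes, with a 90th percentile of 5.87 against 6.01 to 6.39 on the other arrays.

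Differences of this size are not rare between arrays of one group. The AIC arrays differed by at least 2 in 332 genes (1.55%) and the nucellus arrays in 710 genes (3.31%). The central cell was at least 2 above the egg cell in 39 genes (0.182%) and at least 2 below it in 847 (3.95%), and it was at least 2 above the synergid cells in 50 genes (0.233%) and at least 2 below them in 418 (1.95%). Low genes outnumbered high genes in both comparisons. When the rule was turned to the other cells, the egg cell had 340 genes above both of its neighbours (1.59%) and 5 below both (0.0233%), and the synergid cells had 79 above (0.369%) and 13 below (0.0607%). Among the 3 cell types, the central cell thus had the fewest high and the most low genes.

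**Figure D2:**
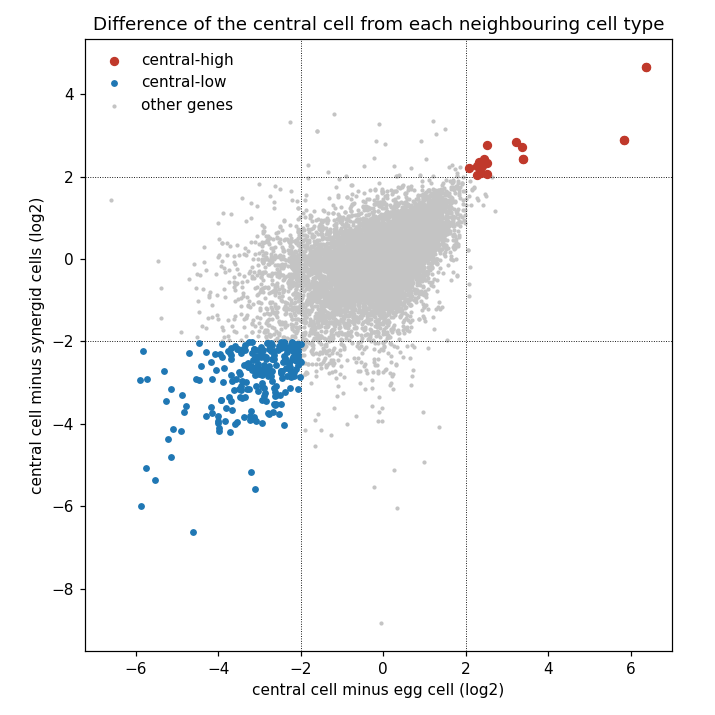
Log2 difference of the central cell to the egg cell (x axis) and to the synergid cells (y axis) for each of the 21428 genes. Dotted lines mark differences of 2 and -2, and the 18 central-high genes lie in the upper right corner and the 238 central-low genes in the lower left.

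The balance between high and low genes depended on how the arrays were scaled. After quantile normalization of the 3 arrays, 60 genes were high and 179 low, and after quantile normalization over all 7 arrays 93 were high and 219 low. All 18 central-high genes were among the high genes under both normalizations, and 167 and 188 of the central-low genes were among the low ones. The 18 genes lay at percentile 85.8 or above in the central cell, where its range was narrower and both normalizations raise its values. Their retention was therefore favoured in advance. With a rule on ranks in place of log2 values, a gene being at least 25 percentile points above or below its rank on both other arrays, 366 genes were high and 516 low. Of the genes called on the log2 scale, 6 of the 18 central-high and 129 of the 238 central-low genes also met the rule on ranks.

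The 18 central-high genes comprised 15 different profiles, since 3 pairs of loci had identical values on all 7 arrays. Each pair joined a locus of the mitochondrial genome (prefix ATMG) with a locus of chromosome 2, where *Arabidopsis* carries a copy of mitochondrial DNA, so that the members of a pair cannot be told apart. The first pair, ATMG00730 and AT2G07687, had the largest difference of all central-high genes. It had a log2 value of 10.41 in the central cell, against 4.05 in the egg cell and 5.75 in the synergid cells, 10.04 and 6.62 on the AIC arrays and 9.09 and 8.04 on the nucellus arrays. The central cell was thus 4.66 above the nearer of its neighbours, while the first AIC array lay close to it. The second pair, ATMG01190 and AT2G07698, read 10.72 in the central cell, against 4.87 in the egg cell and 7.83 in the synergid cells, 10.30 and 9.56 on the AIC arrays and 8.98 and 8.62 on the nucellus arrays. Here the egg cell stood apart, being lower than each of the other 6 arrays. The egg cell was also the lowest array for the first pair and for the third. The third pair, ATMG01270 and AT2G07696, read 6.26 in the central cell, against 2.87 in the egg cell and 3.83 in the synergid cells, 7.91 and 6.38 on the AIC arrays and 3.76 and 3.15 on the nucellus arrays. Both AIC arrays exceeded the central cell for this pair, and both nucellus arrays were within 1 of the synergid cells.

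Most mitochondrial loci did not show the large differences of these pairs, although a larger share of them than of all genes lay above both neighbours. Of 77 loci with the prefix ATMG, 3 were central-high, a larger share than the 0.0840% of all genes. A further 2 were central-low (2.6%, beside 1.11% of all genes) and 72 were neither. The median difference of the central cell was 0.33 to the egg cell and 0.10 to the synergid cells, beside 0.11 and 0.03 over all genes, and 45 of the 77 (58.4%) were above both, beside 40.2% of all genes. In the central cell 27 of these loci lay in the top 25% of the array, against 11 in the egg cell, 21 in the synergid cells, 32 and 27 on the AIC arrays and 24 and 23 on the nucellus arrays. The low loci, ATMG00080 and ATMG00090, shared 1 profile of 7.76 in the central cell, against 10.36 in the egg cell and 11.05 in the synergid cells, 10.93 and 10.62 on the AIC arrays and 10.40 and 8.77 on the nucellus arrays. Loci of the same organelle genome were therefore found at both ends. Identical values with a locus of chromosome 2 occurred in 49 pairs of a mitochondrial and another locus.

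The other 12 central-high loci were nuclear. No central-high gene lay on chromosome 5, which held 4903 of the 21428 genes, while 0.0840% of all genes were central-high. The deposited table does not pair loci with gene names, so they are given by locus. AT3G57690 differed from the rest by its level in the young ovule. It read 9.80 in the central cell, against 6.44 in the egg cell and 7.09 in the synergid cells, but 13.61 and 13.08 on the AIC arrays and 13.66 and 13.82 on the nucellus arrays, where it was the brightest gene of each array. The central cell therefore lay between the other gametophyte cells and the AIC and nucellus. AT3G44950 read 9.24 in the central cell, against 6.02 in the egg cell and 6.41 in the synergid cells, 6.54 and 7.28 on the AIC arrays and 6.64 and 6.4 on the nucellus arrays. All 6 other arrays lay within a range of 1.3 for this gene and the central cell lay outside it.

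A further 4 loci resembled AT3G44950 in being bright on every array and brightest in the central cell. AT4G03728 read 9.12 in the central cell, against 6.73 in the egg cell and 6.85 in the synergid cells, and between 6.05 and 7.15 on the AIC and nucellus arrays. AT3G28590 read 8.49 in the central cell, against 6.22 and 6.23 in the egg cell and the synergid cells, and between 6.37 and 7.22 on the AIC and nucellus arrays. AT1G15840 read 8.34 in the central cell, against 5.98 in the egg cell and 6.26 in the synergid cells, and between 6.27 and 7.24 on the AIC and nucellus arrays. Its neighbour by locus number, AT1G15830, fell just outside the threshold with a similar profile, at 7.58 in the central cell, against 5.66 in the egg cell and 5.58 in the synergid cells. AT1G32290 read 9.11 in the central cell, against 6.59 in the egg cell and 7.05 in the synergid cells, with 8.37 on the second AIC array as the nearest value. In total, 6 of the 18 central-high genes were in the top 25% of all 7 arrays, namely these 4, AT3G44950 and AT3G57690. The rule on ranks could not call these 6. A gene in the top 25% of both other arrays has no 25 percentile points left to gain.

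In contrast, AT1G73050 and AT4G16900 were found at a raised level on the central cell array only. AT1G73050 read 6.19 in the central cell, against 3.76 in the egg cell and 3.76 in the synergid cells, 3.76 and 3.69 on the AIC arrays and 3.74 and 3.76 on the nucellus arrays. It was at percentile 93.3 of the central cell array, against 41.1 in the egg cell and 36.9 in the synergid cells. AT4G16900 read 5.57 in the central cell, against 3.48 in the egg cell and 3.37 in the synergid cells, 3.44 and 2.98 on the AIC arrays and 3.48 on both nucellus arrays. The central cell was above all 6 other arrays by at least 2 for these genes, which no other central-high gene showed. AT3G48540, just inside the threshold, had the same form at a smaller size, with 6.06 in the central cell, against 3.78 in the egg cell and 4.02 in the synergid cells, and between 4.02 and 4.51 on the AIC and nucellus arrays.

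AT1G62500 and AT2G20790 varied within a pair of replicate arrays by more than between the cells. AT1G62500 read 6.86 in the central cell, against 4.53 in the egg cell and 4.51 in the synergid cells, but 3.30 and 8.37 on the AIC arrays and 5.69 and 6.37 on the nucellus arrays. AT2G20790 read 7.62 in the central cell, against 5.10 in the egg cell and 4.86 in the synergid cells, 5.60 and 5.50 on the AIC arrays, but 8.38 and 4.86 on the nucellus arrays. For each of these genes the replicate arrays of one group lay on either side of the central cell. AT1G04800 was more even, with 7.57 in the central cell, against 5.05 in the egg cell and 5.24 in the synergid cells, and between 5.4 and 6.06 on the AIC and nucellus arrays. At the edge of the rule, AT1G32290 had a smaller difference of 2.07 and AT3G48540 of 2.05, while AT1G17640 stayed outside with 1.98 and AT1G66390 with 1.88.

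**Figure D3:**
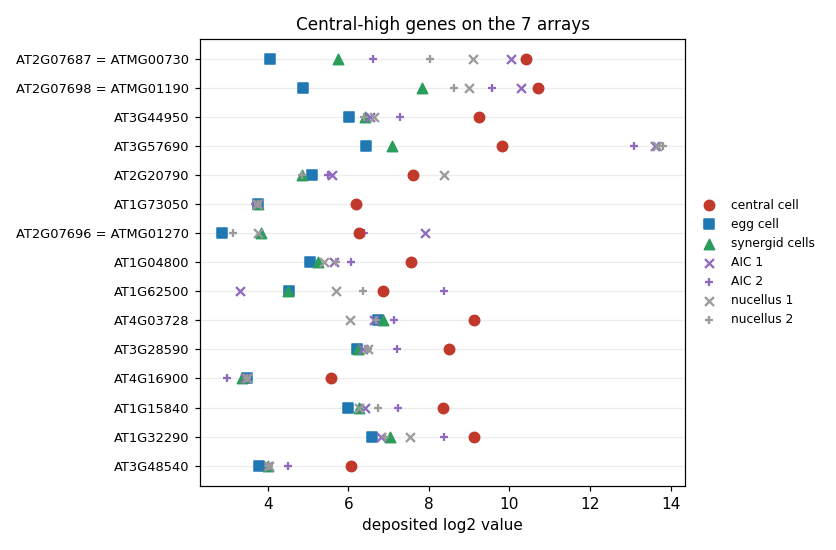
Deposited log2 values (x axis) of the 18 central-high genes (rows, loci with identical values joined by an equals sign), with 1 symbol per array. AT3G57690 is far brighter on the AIC and nucellus arrays (13.08 to 13.82) than in the central cell (9.80), and AT1G73050 is raised in the central cell only (6.19 against 3.69 to 3.76).

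The AIC and nucellus arrays did not enter the rule, although a difference to them shares the central cell value with it. For 13 of the 18 central-high genes the central cell had the highest value of all 7 arrays, which it had for 24.7% of all genes. It was at least 2 above all 4 AIC and nucellus arrays for 2 genes, beside 0.0373% of all genes. Without the second AIC array this count was 6, and after quantile normalization over all 7 arrays it was 9. By single arrays, the central cell was at least 2 above the first AIC array for 9 of the 18 genes (0.182% of all genes), above the second for 5 (0.205%), above the first nucellus array for 10 (0.210%) and above the second for 14 (0.238%).

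The 238 central-low genes were mostly bright on every array except that of the central cell. In the egg cell 236 of them, and in the synergid cells 235, lay in the top 25% of the array, a level that the rule favours. In the central cell 99 of the 238 were in the top 25%, 66 were in the lower 50% and 23 were in the lowest 25% of the array. The median level was 4.76 in the central cell, against 7.98 in the egg cell and 7.67 in the synergid cells. On the arrays that the rule did not use, the medians were 7.93 and 7.66 for the AIC and 7.85 and 7.57 for the nucellus, with 205 to 227 of the 238 genes in the top 25%. Brightness in the young ovule was common among genes of this level. Of the 235 central-low genes in the top 25% of both the egg cell and synergid cell arrays, 195 (83.0%) were in the top 25% of all 4 AIC and nucellus arrays, and of the other 3818 genes in the top 25% of both arrays, 2784 (72.9%).

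The largest difference was that of AT3G02090. It read 3.38 in the central cell, against 9.26 in the egg cell and 9.36 in the synergid cells, 10.43 and 9.25 on the AIC arrays and 10.61 and 7.90 on the nucellus arrays. This locus was at percentile 19.5 of the central cell array and above percentile 96 of each of the other 6. AT3G49870 read 3.77 in the central cell, against 9.31 in the egg cell and 9.14 in the synergid cells, 8.86 and 8.98 on the AIC arrays and 8.86 and 10.22 on the nucellus arrays. AT3G57650 read 5.01 in the central cell, against 10.76 in the egg cell and 10.08 in the synergid cells, 10.58 and 9.74 on the AIC arrays and 10.06 and 9.0 on the nucellus arrays. These 3 genes were the only ones below both neighbours by at least 5, and 8 were so by at least 4 and 51 by at least 3.

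Among the next largest, the level in the central cell was close to the bottom of the array for some and well above it for others. AT2G01090 read 2.92 in the central cell, against 7.53 in the egg cell and 9.54 in the synergid cells, 9.27 and 9.10 on the AIC arrays and 10.20 and 9.30 on the nucellus arrays. Its difference of -6.61 to the synergid cells was the largest to either neighbour among all central-low genes. AT4G19210 read 2.96 in the central cell, against 8.05 in the egg cell and 7.07 in the synergid cells, 7.93 and 7.95 on the AIC arrays and 7.61 and 8.90 on the nucellus arrays. AT2G24765 read 4.02 in the central cell, against 9.17 in the egg cell and 8.82 in the synergid cells, 8.75 on both AIC arrays and 9.19 and 8.75 on the nucellus arrays. The 6 other arrays lay within 0.5 of each other for AT2G24765, and AT5G02610 had the same even form, at 3.28 in the central cell, against 7.27 in the egg cell and 7.22 in the synergid cells and 7.09 to 7.55 on the AIC and nucellus arrays. AT1G67430 was low only in relation to very bright arrays, with 7.15 in the central cell, against 10.99 in the egg cell and 11.06 in the synergid cells, 10.93 and 11.72 on the AIC arrays and 11.33 and 10.98 on the nucellus arrays. It stayed at percentile 98.3 of the central cell array, and was thus low by log2 value but not by the rule on ranks.

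Some of the 15 genes with the largest differences were also low on 1 nucellus array. AT1G53400 read 4.06 in the central cell, against 9.29 in the egg cell and 8.43 in the synergid cells, 8.10 and 8.62 on the AIC arrays, and 9.14 and 5.28 on the nucellus arrays. AT3G04560 read 4.13 in the central cell, against 8.11 in the egg cell and 8.31 in the synergid cells, 8.42 and 8.16 on the AIC arrays, and 8.90 and 4.94 on the nucellus arrays. In both cases the second nucellus array lay near the central cell and apart from its own replicate. The remaining loci of the 15, AT3G06400, AT3G16780, AT4G32260, AT2G34690 and AT1G54410, had values of 4.49 to 5.48 in the central cell. They read 8.58 to 9.50 in the egg cell, 8.55 to 9.30 in the synergid cells and 7.4 to 9.9 on the nucellus arrays. Of the 15 genes, 12 were at least 2 below all 4 AIC and nucellus arrays.

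**Figure D4:**
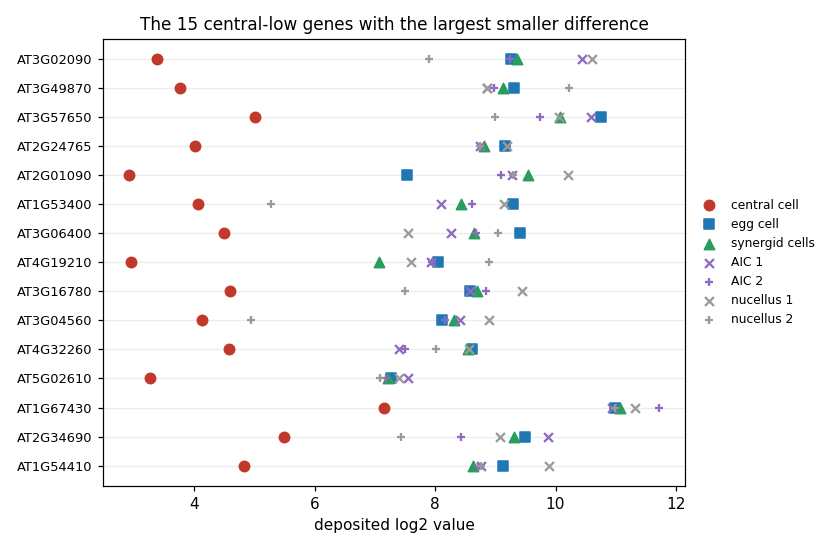
Deposited log2 values (x axis) of the 15 central-low genes whose smaller difference to the egg cell and the synergid cells was largest (rows), with 1 symbol per array. The central cell lies between 2.92 and 7.15 and is the lowest value in every row. The second nucellus array is the nearest to it for several genes, most closely for AT3G04560 (4.94) and AT1G53400 (5.28).

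Across all 238 central-low genes, the central cell had the lowest value of the 7 arrays for 213 (89.5%), beside 11.3% of all genes. It was at least 2 below each of the 4 AIC and nucellus arrays for 131 (55.0%), beside 1.15% of all genes. This count was 164 without the second nucellus array and 100 after quantile normalization over all 7 arrays. By single arrays the count was 189 for the first AIC array (3.96% of all genes), 189 for the second (2.79%), 187 for the first nucellus array (4.13%) and 159 for the second (4.26%). Since the low central cell value is common to the rule and to these differences, the shares are not independent of it. The AIC arrays differed from each other by at least 2 in 9 of the 238 genes (1.55% of all genes), and the nucellus arrays in 26 (3.31% of all genes).

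A smaller class of central-low genes was close to or below the level of the central cell in the young ovule. For 23 of the 238, none of the 4 AIC and nucellus arrays was as much as 2 above the central cell, as for 92.0% of all genes. Some of the 23 were still bright there, such as AT1G06560, with 5.13 in the central cell, against 7.53 in the egg cell and 9.17 in the synergid cells, and between 6.08 and 7.06 on the AIC and nucellus arrays. AT5G05600 read 3.82 in the central cell, against 7.48 in the egg cell and 6.78 in the synergid cells, 3.80 and 3.58 on the AIC arrays and 3.79 and 3.88 on the nucellus arrays. AT1G21670 read 4.24 in the central cell, against 7.92 in the egg cell and 6.56 in the synergid cells, 3.37 and 3.97 on the AIC arrays and 3.63 and 3.54 on the nucellus arrays. Only these 2 central-low genes were in the lower 50% of all 4 AIC and nucellus arrays, and they were raised in the egg cell and the synergid cells. AT3G17152 had a different profile, with 7.32 in the central cell, against 10.52 in the egg cell and 9.61 in the synergid cells, 3.93 and 4.58 on the AIC arrays and 3.95 and 3.93 on the nucellus arrays. It was bright in all 3 gametophyte cells, the central cell having the lowest of these levels. The loci AT1G06560, AT5G05600, AT1G21670 and AT3G17152 were singled out after their values were seen.

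By rank, all 238 central-low genes were lower in the central cell than in both neighbours, with a median drop of 28.3 percentile points to the nearer of them. AT5G64400 marked one end, at 9.04 and percentile 99.9 in the central cell, against 11.21 in the egg cell and 11.26 in the synergid cells. At the other end, AT1G80920 was at 2.65 and percentile 1.23 in the central cell, against 6.53 in the egg cell and 5.64 in the synergid cells, and between 6.56 and 7.22 on the AIC and nucellus arrays. The central-low genes were spread over the genome, with 1.12% of the genes measured on chromosome 1 being central-low, 1.00% on chromosome 2, 1.13% on chromosome 3, 1.17% on chromosome 4 and 1.1% on chromosome 5. Just inside the threshold lay AT4G00100 with 6.65 in the central cell, against 8.86 in the egg cell and 8.66 in the synergid cells. Just outside lay AT3G59540 with 4.37 in the central cell, against 6.45 in the egg cell and 6.37 in the synergid cells.

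Markers of the central cell were next examined, to set the label of the array against its content. Of 11 genes listed for the central cell and endosperm, 8 were measured, and 0 of them were central-high (0.0840% of all genes) or central-low (1.11% of all genes). Their median difference was 0.28 to the egg cell and 0.35 to the synergid cells, beside 0.11 and 0.03 over all genes, and 5 of the 8 (62.5%) were above both, beside 40.2% of all genes. *AGL80*, a MADS-box gene that *Arabidopsis* needs for central cell development, read 6.6 in the central cell, against 6.10 in the egg cell and 6.14 in the synergid cells, 4.99 and 4.66 on the AIC arrays and 4.82 and 5.56 on the nucellus arrays. It was at percentile 96.1 of the central cell array and was higher in all 3 gametophyte cells than on the AIC and nucellus arrays. *AGL61*, whose product pairs with that of *AGL80*, read 4.53 in the central cell, against 4.28 in the egg cell and 4.08 in the synergid cells, and between 3.68 and 4.07 on the AIC and nucellus arrays.

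The imprinted homeobox gene *FWA*, expressed in the central cell and endosperm of *Arabidopsis*, read 4.85 in the central cell, against 3.69 in the egg cell and 3.48 in the synergid cells, 3.99 and 3.69 on the AIC arrays and 3.72 and 3.78 on the nucellus arrays. Its differences of 1.16 to the egg cell and 1.37 to the synergid cells were the largest of the list and remained below the threshold. *MEA*, which encodes the histone methyltransferase of the FIS Polycomb complex, read 4.83 in the central cell, against 4.51 in the egg cell and 4.2 in the synergid cells, and between 3.38 and 3.71 on the AIC and nucellus arrays. *FIS2*, which encodes the zinc finger protein of the same complex, read 3.81 in the central cell, against 4.16 in the egg cell and 3.79 in the synergid cells. The levels of *FIS2* on the AIC and nucellus arrays, between 3.35 and 3.49, were below those of all 3 gametophyte cells. *DME*, encoding DEMETER, read 4.2 in the central cell, against 4.34 in the egg cell and 4.05 in the synergid cells. The MADS-box genes *AGL23* and *AGL62* read 4.12 and 3.06 in the central cell, against 3.37 and 3.16 in the egg cell and 3.88 and 2.93 in the synergid cells. Apart from *AGL80*, none of the list reached the top 25% of the central cell array, and the differences in the others were small. Whether these dimmer readings were above background was not tested.

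The synergid markers *MYB98* and *NTA* were low on the central cell array. *MYB98*, the transcription factor of the synergid cells, read 3.91 in the central cell, against 3.18 in the egg cell and 6.61 in the synergid cells. *NTA*, which acts in pollen tube reception in the synergid cells, read 3.08 in the central cell, against 2.89 in the egg cell and 6.08 in the synergid cells. The central cell was within the range of the AIC and nucellus arrays for *NTA* (2.72 to 3.24) and just above it for *MYB98* (3.49 to 3.90). *FER*, a receptor kinase gene of pollen tube reception that is also active in many other tissues, read 3.90 in the central cell, against 5.02 in the egg cell and 4.0 in the synergid cells. Of 4 genes listed for the synergid cells, 3 were measured.

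Of 12 genes listed for the egg cell, 6 were measured, and they did not separate the egg cell array. *EC1.2* and *EC1.5*, which encode secreted proteins of the *Arabidopsis* egg cell, read 2.78 and 2.92 in the central cell, against 3.02 and 2.74 in the egg cell and 3.05 and 3.22 in the synergid cells. The RWP-RK domain genes *RKD2* and *RKD5* read 3.49 and 4.12 in the central cell, against 3.63 and 3.34 in the egg cell and 5.06 and 3.74 in the synergid cells. *RKD2* was thus highest on the synergid cell array. The homeobox genes *WOX2* and *WOX8* read 5.37 and 3.05 in the central cell, against 4.92 and 2.73 in the egg cell and 5.47 and 3.21 in the synergid cells. On the egg cell array *EC1.2*, *EC1.5* and *WOX8* lay at percentiles 3.15 to 11.4, near the floor as on the other arrays, so that these genes give no information on the label of the egg cell array either way. *RKD5* was highest of the 7 arrays in the central cell, and *WOX2* was higher there than in the egg cell.

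Of 5 genes listed for the ovule integument and nucellus, none was central-high (0.0840% of all genes) or central-low (1.11% of all genes). Flavonoid genes of the seed coat were highest in the central cell. *BAN*, which encodes an enzyme of proanthocyanidin synthesis, read 5.33 in the central cell, against 4.02 in the egg cell and 4.03 in the synergid cells, and between 4.15 and 4.25 on the AIC and nucellus arrays. *TT12*, which encodes a transporter of proanthocyanidin precursors, read 6.57 in the central cell, against 5.52 in the egg cell and 5.38 in the synergid cells, and between 5.15 and 5.62 on the AIC and nucellus arrays. *INO*, a gene of the outer integument, read 5.08 in the central cell, against 4.77 in the egg cell and 4.74 in the synergid cells, 4.53 and 4.2 on the AIC arrays and 7.14 and 4.41 on the nucellus arrays. *WUS* and *SPL*, which act in the nucellus of the young ovule, read 3.31 and 3.69 in the central cell, against 3.20 and 3.69 in the egg cell and 3.53 and 3.69 in the synergid cells. Of the 5, 3 were above both neighbours in the central cell (60.0%, beside 40.2% of all genes), and the part of integument RNA in the central-high genes was not tested.

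**Figure D5:**
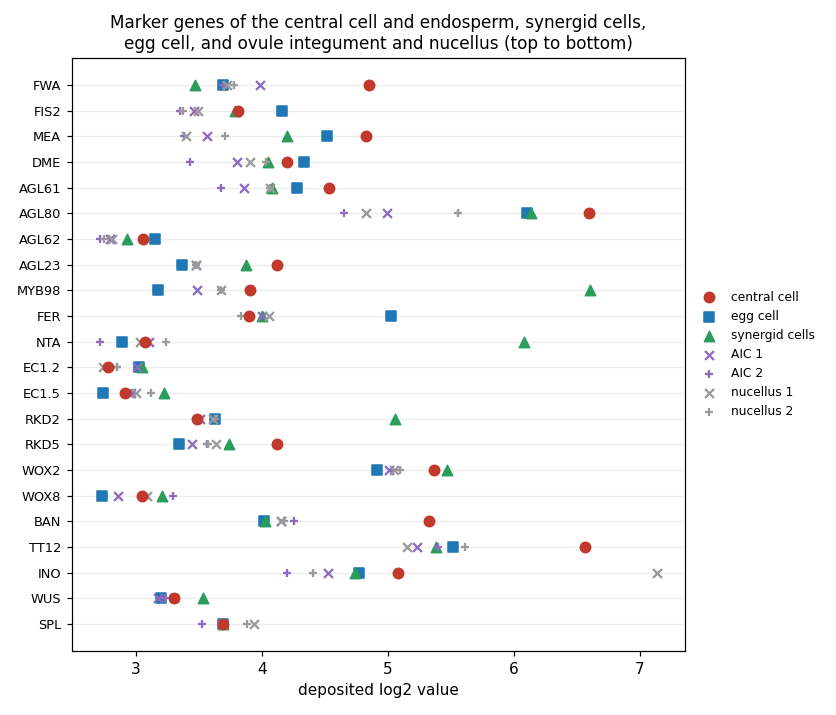
Deposited log2 values (x axis) of the measured marker genes (rows), in the order central cell and endosperm (*FWA* to *AGL23*), synergid cells (*MYB98* to *NTA*), egg cell (*EC1.2* to *WOX8*), and integument and nucellus (*BAN* to *SPL*), with 1 symbol per array. *MYB98* and *NTA* are raised in the synergid cells (6.61 and 6.08), *FWA*, *BAN* and *TT12* are highest in the central cell (4.85, 5.33 and 6.57), and the egg cell is the highest array for none of its 6 listed genes.

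Genes of Polycomb complexes, DNA methylation and demethylation held 0 central-high (0.0840% of all genes) and 0 central-low genes (1.11% of all genes) among 16 measured. The central cell was below both neighbours for 8 of the 16, beside 24.7% of all genes, and above both for 3. *SWN*, which encodes a histone methyltransferase related to that of *MEA*, came closest to the rule, with 4.60 in the central cell, against 6.77 in the egg cell and 5.90 in the synergid cells. The AIC arrays read 7.49 and 6.22 for *SWN* and the nucellus arrays 4.98 and 3.62, so that the nucellus was at the level of the central cell. *FIE*, which encodes a WD40 protein of Polycomb complexes, read 4.09 in the central cell, against 4.83 in the egg cell and 4.67 in the synergid cells. The histone-binding partner *MSI1* read 7.03 in the central cell, against 6.58 in the egg cell and 6.4 in the synergid cells. The maintenance methyltransferase gene *MET1* read 3.76 in the central cell, against 3.53 in the egg cell and 3.53 in the synergid cells. *DDM1*, a chromatin remodelling gene needed for DNA methylation, was raised in the egg cell instead, with 3.38 in the central cell, against 6.18 in the egg cell and 2.82 in the synergid cells.

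None of 39 measured regulators of the cell cycle was central-high (0.0840% of all genes) or central-low (1.11% of all genes). Their median difference was 0.09 to the egg cell and 0.04 to the synergid cells, beside 0.11 and 0.03 over all genes. *E2FC*, which encodes a repressing E2F transcription factor, read 4.32 in the central cell, against 6.53 in the egg cell and 5.76 in the synergid cells, and between 6.30 and 7.72 on the AIC and nucellus arrays. Of the 7 arrays, that of the central cell was lowest for this gene, and its difference of -1.45 to the synergid cells kept it outside the rule. *WEE1*, encoding a kinase that delays entry into mitosis, read 5.94 in the central cell, against 5.16 in the egg cell and 4.70 in the synergid cells. *CDKA;1*, encoding the main cyclin-dependent kinase, was even among the cells, with 5.29 in the central cell, against 5.32 in the egg cell and 5.28 in the synergid cells. *PCNA2*, encoding the sliding clamp of DNA replication, read 4.53 in the central cell, against 8.43 in the egg cell and 3.42 in the synergid cells.

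Nuclear genes of photosynthesis had a lower level in the central cell than in the egg cell. Of 34 genes listed, 22 were measured, of which 2 were central-low (1.11% of all genes) and 0 central-high. The median difference was -1.91 to the egg cell, beside 0.11 over all genes, and it was -1.09 after quantile normalization over the 3 arrays and -1.19 over all 7. As deposited, the central cell was at least 2 below the egg cell for 10 of the 22 (45.5%), beside 3.95% of all genes. The median difference to the synergid cells was -0.38, beside 0.03 over all genes and -0.26 over the same 4053 bright genes. For the list it was 0.04 after quantile normalization over the 3 arrays or over all 7, so that its direction depended on the scaling. *LHCB4.1*, which encodes an antenna protein of photosystem II, was central-low, with 4.74 in the central cell, against 9.20 in the egg cell and 6.76 in the synergid cells, 8.28 and 9.19 on the AIC arrays and 6.95 and 7.23 on the nucellus arrays. *PSAO*, which encodes a subunit of photosystem I, was the other one, with 5.86 in the central cell, against 9.41 in the egg cell and 8.05 in the synergid cells, 8.17 and 9.87 on the AIC arrays and 7.97 and 7.14 on the nucellus arrays. For both genes the central cell was below all 6 other arrays.

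For some other genes of photosynthesis the central cell was at least 2 below the egg cell but not at least 2 below the synergid cells. *RCA*, which encodes Rubisco activase, read 5.32 in the central cell, against 8.03 in the egg cell and 5.32 in the synergid cells. *PSAD-2*, a photosystem I gene, read 6.49 in the central cell, against 9.88 in the egg cell and 7.30 in the synergid cells. The egg cell was the bright array for these genes, and the synergid cells were at least 2 below it for 6 of the 22, beside 2.28% of all genes. *PSBO2*, which encodes a protein of the oxygen-evolving complex, was the only gene of the list not below the egg cell. It read 5.99 in the central cell, against 5.28 in the egg cell and 5.99 in the synergid cells. Over the list, the central cell was below both neighbours for 16 of the 22 genes (72.7%), beside 24.7% of all genes, and was the lowest of the 7 arrays for 9, beside 11.3% of all genes. Most of the list was bright, with 21 of the 22 genes in the top 25% of the egg cell array and 19 in that of the synergid cells. The shares of all genes include dim ones, and the part of the narrower range of the central cell array was not tested.

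Lists of heat shock genes (15 measured), GRAS transcription factors (19) and seed storage and oil body genes (9) held no central-high (0.0840% of all genes) and no central-low gene (1.11%). The median difference of the heat shock list was 0.05 to the egg cell and 0.08 to the synergid cells. *PAT1*, a GRAS gene of light signalling, was among the more different, with 5.98 in the central cell, against 4.66 in the egg cell and 4.74 in the synergid cells. *HSC70-1*, a constitutive chaperone gene, read 8.79 in the central cell, against 10.39 in the egg cell and 9.41 in the synergid cells. None of the seed storage genes reached the top 25% of any array.

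A model across all genes found no gene past its threshold. In limma, fitted to the 7 arrays with the single arrays assumed to vary like the AIC and nucellus pairs, 0 genes differed from both the egg cell and the synergid cells at a Benjamini-Hochberg adjusted p below 0.05, in either direction (0.00%). The smallest adjusted p was 0.154 for the contrast with the egg cell and 0.253 for that with the synergid cells. At an unadjusted p below 0.05 in both contrasts, 1109 genes were above both neighbours (5.18%) and 523 were below both (2.44%). A filter on low values kept 6854 genes, those in the top 25% of at least 2 of the 7 arrays. Among these, 61 genes were above and 329 below both neighbours. The filter drops genes bright on the central cell array alone, such as AT1G73050 and AT4G16900. It keeps genes that are bright on the other arrays and low only in the central cell. Low genes were therefore favoured in advance, and no conclusion is drawn from the changed balance. The pairs leave 2 residual degrees of freedom.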

How the data were processed

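The authors deposited log2 expression values, 1 per *Arabidopsis* gene and array, from custom probe sets with all ATH1 probes of a gene combined. RMA is named in the study's methods for heatmap values on this scale, while for the deposited table the method is not given in the sources consulted. RNA was amplified linearly before labelling. Hybridization of *Boechera* RNA to *Arabidopsis* probes lowers the signal where sequences differ. Percentiles and ranks set different probe sets of an array against each other, so they share this limit. The table holds 21428 genes and 64 control features, with 0 missing values, and was used as deposited without the control features.

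Arrays were assigned to cell types by the labels. A percentile is the rank of a gene within its array. limma 3.58.1 (R 4.3.3, lmFit and eBayes) was fitted to all 7 arrays with 1 mean per group, with Benjamini-Hochberg adjustment. The model was afterwards also run on data simulated from this fit, and the outcome of that run is not given here. Labels do not say whether the replicate arrays came from separate plants. The p values rest on the spread within the AIC and nucellus pairs, to which the single arrays of the gametophyte cells add none. Arrays have no read depth, and their number limits the precision. Other steps used Python 3.11.15, numpy 2.4.6, pandas 2.3.3 and matplotlib 3.10.9.

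Named were the 15 central-high and 15 central-low genes with the largest smaller difference to both neighbours, list members that were called, all central cell, egg cell and synergid cell markers, and the genes at the threshold. Other list members and loci were named as examples after their values were seen. The members and lists were chosen with earlier results of these data known. Symbols and roles of listed genes are standard *Arabidopsis* names entered by hand, or those of the study, and were not looked up in an annotation. Alternatives changed the threshold, scaling, filter, reference, control and organelle features, and left out each AIC or nucellus array.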

Additional observations from a re-analysis of the deposited data

How the results depend on the processing

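At thresholds of 1, 1.5 and 3, 420, 69 and 2 genes were central-high, and 809, 433 and 51 were central-low. After quantile normalization over 3 and over 7 arrays, 60 and 93 genes were central-high. The rule on percentile ranks gave 366 high and 516 low genes, and both rules together 6 and 129. Against the mean of the egg and synergid cell arrays, 432 genes were central-low. The number of central-high genes at least 2 above all AIC and nucellus arrays ranged from 2 to 6 when an array was left out, the 6 without the second AIC array, and was 9 after quantile normalization over 7 arrays. The number of central-low genes at least 2 below all of these arrays, 131 as reported, ranged from 134 to 164 when an array was left out. After quantile normalization over 7 arrays it was 100. The photosynthesis median to the synergid cells was 0.035 after quantile normalization over 3 arrays and 0.039 over 7, and *NTA* in the central cell differed from the egg cell by -0.04 after scaling by the median and the median absolute deviation. Of the other counts, 21 stayed within 1.5 times the reported ones, and the 16 of limma calls were 0 throughout, which says nothing about stability. Of the single values, 182 moved by less than the replicate spread and 39 by more, such as *AGL80* in the central cell against the egg cell (0.50 as reported, 1.33 after quantile normalization over 7 arrays) and *TT12* (1.05 and 1.81). Causes were not tested. The AIC and nucellus arrays share replicate numbers only (r = 0.03 between the deviations of both pairs, across genes, which are not independent), and a limma fit blocked on replicate number called 0 genes in either direction, and 597 above and 537 below at an unadjusted p below 0.05 in both contrasts.

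Subtracting array medians moved the median difference over all genes from the egg cell by 0.15. Each gametophyte cell type had 1 array, so no count has a replicate error, and the part of the narrower range of the central cell array was not tested.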

Other observations

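Some genes met the rule on ranks alone. AT3G50570 ranked 57.7 percentile points above the nearer neighbour, with a log2 value of 4.83 in the central cell, against 3.05 in the egg cell and 3.11 in the synergid cells, but it was higher still on the first AIC array (5.79). AT5G30545 read 4.51 in the central cell, against 2.86 in the egg cell and 3.11 in the synergid cells, and between 2.57 and 2.85 on the AIC and nucellus arrays. It was thus raised on the central cell array alone, at a difference below the threshold. AT2G01520 lay lower by rank, with 2.87 in the central cell, against 7.38 in the egg cell and 4.76 in the synergid cells, 3.44 and 3.73 on the AIC arrays and 4.13 and 8.24 on the nucellus arrays.

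The 3 measured loci of the chloroplast genome, ATCG00020, ATCG01000 and ATCG01130, were neither central-high (0.0840% of all genes) nor central-low (1.11% of all genes). ATCG00020 read 7.66 in the central cell, against 9.26 in the egg cell and 4.57 in the synergid cells, and ATCG01000 and ATCG01130 shared 1 profile of 7.78 in the central cell, against 11.69 in the egg cell and 7.39 in the synergid cells. The central cell was below the egg cell for each of these loci, as for 21 of the 22 measured nuclear genes of photosynthesis.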
